A study of Rattus norvegicus with 4 samples.

Results

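The 32 genes described here are interferon-response genes, chosen by name from a list of symbols among the 25629 features of a single-cell RNA sequencing data set of rat dorsal root ganglia. All 32 symbols were found, each on 1 feature. The list was chosen with earlier results of these data known. The list holds 4 transcription factors of the pathway (Irf1, Irf7, Irf9, Stat2), 1 sensor of double-stranded RNA (Ifih1) and 27 induced genes: the Ifit family (Ifit1, Ifit1bl, Ifit2, Ifit3), the Mx GTPases (Mx1, Mx2), the oligoadenylate synthetase family (Oas1a, Oas2, Oasl, Oasl2), the guanylate-binding proteins (Gbp2, Gbp5, Gbp7), the ISG15 system (Isg15, Usp18, Herc6), the membrane proteins Bst2 and Ifitm3, the Ifi27 family (Ifi27, Ifi27l2b), and Rsad2, Ifi44, Ifi44l, Rtp4, Xaf1, Ddx60 and Parp14.

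The dorsal root ganglia, which hold the cell bodies of sensory neurons beside the spinal cord, came from CPIP rats and from Sham rats. CPIP is not spelled out in the labels; work on pain uses these letters for a model of chronic post-ischaemia pain, made by a period of reduced blood flow to a limb. The animals of both groups were male SD rats described as wild type and naïve, and in both the ipsilateral L4-L6 ganglia were digested with dispase, collagenase, DNase and papain. Single cells were then paired with beads in the microwells of a BD Rhapsody cartridge, so that each transcript took up the barcode of its cell. There were 2 CPIP libraries and 2 Sham libraries, each a pool of 3 rats, so that the spread between rats within a library cannot be seen, and the rats' age and the time between the procedure and the tissue are not given in the labels.

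Interferons are cytokines of the antiviral response. Type I interferons act through a receptor that activates a complex with STAT2 and IRF9, which binds the interferon-stimulated response element (ISRE) in the promoters of target genes, while genes that answer to type II interferon often carry the gamma-activated site (GAS). Many of these genes also have a basal level in tissue without infection, and some, such as Irf1, answer to other inflammatory stimuli and to cell stress as well.

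RefSeq promoter sequences (build GRCr8, 250 bases before to 50 bases after the start of a gene) were at hand for 24 of the 32 genes. The ISRE core, searched on both strands as GAAA, any pair of bases and GAAA again, was in 18 of those 24 promoters and in 1312 of the 33469 promoters of all genes (3.92%). The GAS letters, TTCNNNGAA, were in 8 of the 24 and in 2970 of the 33469 (8.87%). The GAS letters read the same on both strands, and in some promoters, such as that of Bst2, the matches of both motifs overlap. These shares describe letters in the window only. The stretches below are those of genes on which the results turn: 4 genes with higher levels in satellite glia than in endothelial cells, 4 with higher levels in endothelial cells, and the GAS of Irf1. Each is written 5′ to 3′ on the strand of the gene, capitals mark the motif match, and a match that begins with TTTC is the ISRE core on the opposite strand.
Gbp5 (chr2:233910923-233910972, plus strand): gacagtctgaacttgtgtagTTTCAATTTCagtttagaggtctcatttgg
Gbp7 (chr2:233948828-233948877, plus strand): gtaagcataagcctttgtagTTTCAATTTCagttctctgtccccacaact
Gbp2 (chr2:234005676-234005725, plus strand): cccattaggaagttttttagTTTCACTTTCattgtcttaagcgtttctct
Ifih1 (chr3:67683998-67684047, minus strand): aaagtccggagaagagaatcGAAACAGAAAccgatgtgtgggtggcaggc
Ifit3 (chr1:241527262-241527311, plus strand): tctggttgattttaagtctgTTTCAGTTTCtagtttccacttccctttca
Bst2 (chr16:18255069-18255118, minus strand): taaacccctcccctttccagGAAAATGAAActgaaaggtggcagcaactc
Ddx60 (chr16:33208883-33208932, minus strand): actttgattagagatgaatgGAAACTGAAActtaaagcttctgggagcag
Ifi27 (chr6:128355208-128355257, plus strand): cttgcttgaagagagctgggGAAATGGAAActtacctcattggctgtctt
Irf1, GAS (chr10:38417773-38417821, plus strand): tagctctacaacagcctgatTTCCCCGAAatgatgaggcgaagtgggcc
The search covered 250 bases before to 50 bases after the start, so every match had to lie near it. The first base of the match was 56 bases before the start in Gbp5, 41 in Gbp7, 31 in Gbp2, 59 in Ifih1 and 44 in Ifit3. It was 131 bases before the start in Bst2, 73 in Ddx60, 84 in Ifi27 and 142 in Irf1. Gbp5 and Gbp7, both on chromosome 2, held the same core, TTTCAATTTC.

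The libraries held 12828 and 12651 barcodes (CPIP 1 and CPIP 2) and 11829 and 11860 barcodes (Sham 1 and Sham 2), with between 60885664 and 64550637 UMIs (unique molecular identifiers, each counted as 1 captured molecule) per library, and 8 to 11 barcodes of each library also occurred in another. After filtering, 44291 of 49168 cells were kept. Clusters were formed without the 32 genes and named from marker genes, so a class name means likeness to that class in its markers, and 10 classes had enough cells in every library. Satellite glia, the cells that wrap the neuron bodies, were the most numerous class, with 3836 and 4136 cells in CPIP and 3644 and 3875 cells in Sham; endothelial cells, which line vessels, numbered 717 and 657 in CPIP and 770 and 788 in Sham. UMIs were summed per library and class and expressed per 1000000 UMIs of that sum (CPM), which is not scaled for transcript length, so CPM are compared between classes and libraries and do not order different genes by abundance. Free RNA was not subtracted.

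The summed level of the 32 genes differed between classes, while the sums of CPIP and Sham overlapped in all 10 classes. Single members had no UMI in some classes, among them Isg15 and Ifi44l in myelinating Schwann cells and Rsad2 and Ddx60 in pericytes. The sum was highest in endothelial cells, at 5005 and 6502 CPM in the CPIP libraries and 5558 and 5190 CPM in the Sham libraries (mean 5564 ± 666, SD over the 4 libraries, as for all class means below). It was next highest in satellite glia, at 4352 and 4755 CPM in CPIP and 4515 and 4049 CPM in Sham (4418 ± 296). The lowest endothelial library lay above the highest satellite glia library.

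Pericytes, which wrap capillaries, followed at 3398 ± 502 CPM, macrophages at 2315 ± 701, non-myelinating Schwann cells at 2041 ± 199 and smooth muscle cells at 1965 ± 630. The smooth muscle value depended on the clustering. With members among the clustering genes, that class held 533 cells, against 673 here, and 938 ± 188 CPM. Neutrophils and monocytes held 1517 ± 415 CPM, fibroblasts 1475 ± 196, neurons 1248 ± 208 and myelinating Schwann cells 732 ± 99.2. In this order, the ranges of neighbouring classes did not overlap between endothelial cells and satellite glia and between neurons and myelinating Schwann cells, while all other neighbours overlapped. The sums rest on UMIs of a few members: Ifitm3 gave 15.6% of it in endothelial cells and 33.0% in pericytes, Gbp5 19.4% in satellite glia, Oasl 20.8% in macrophages, Irf1 47.1% in myelinating Schwann cells and Ifi27 65.0% in neurons. Without Ifi27 the summed level in neurons was 437 CPM.

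**Figure D1:**
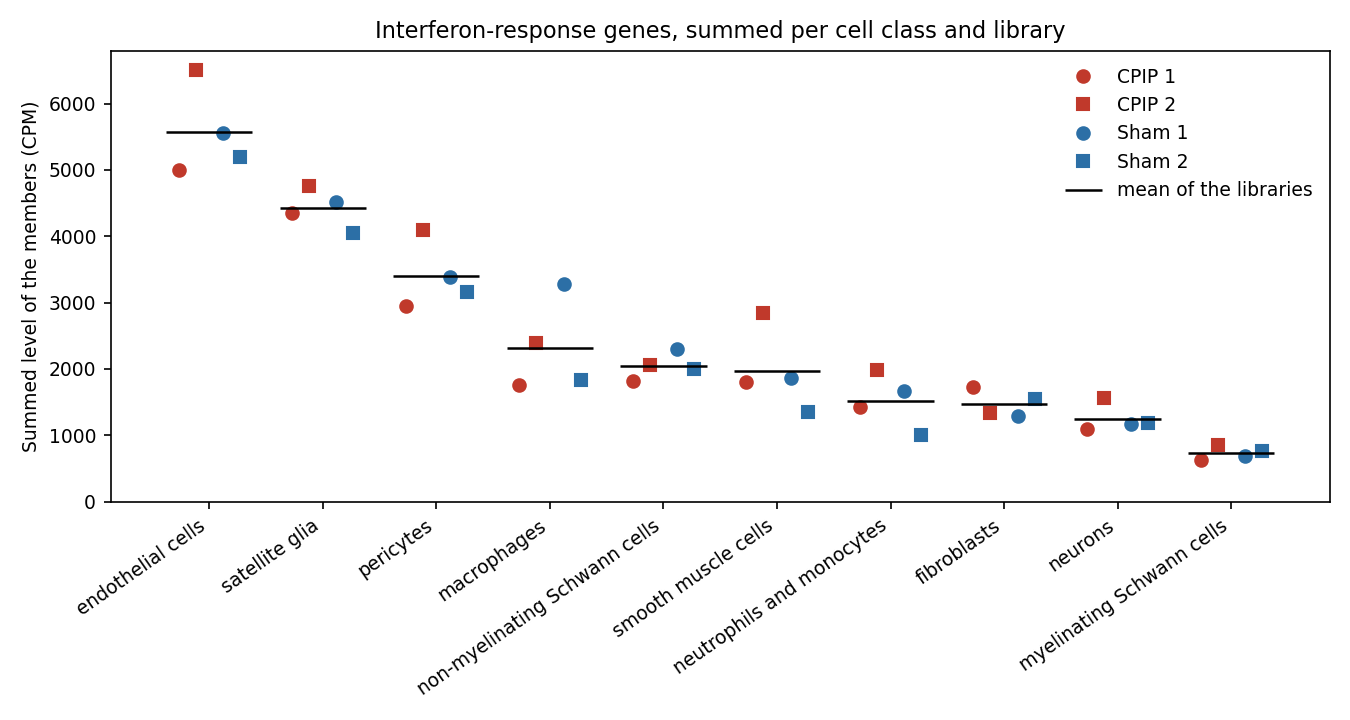
Summed level of the 32 genes in CPM (vertical axis) in each of 10 cell classes (horizontal axis), with 1 point per library, CPIP left of Sham, and the mean of the 4 libraries as a line. Endothelial cells lie between 5005 and 6502 CPM, above every satellite glia library, myelinating Schwann cells are lowest, and CPIP and Sham overlap in all 10 classes.

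The transcription factors stood at different levels in these classes. Irf1, the factor that also mediates the response to type II interferon, averaged 768 ± 150 CPM in pericytes, 696 ± 191 in satellite glia and 662 ± 104 in endothelial cells, which overlapped, against 27.5 ± 11 in neurons, its lowest class. Irf7, which amplifies the type I response, averaged 72.4 ± 22.4 CPM in endothelial cells and 53.9 ± 7.82 in satellite glia. Stat2 ranged over the classes from 14.6 CPM in fibroblasts to 36.2 ± 20.6 in pericytes. Irf9, the DNA-binding part of the type I complex, had 1 UMI in all classes and libraries together (satellite glia, CPIP 2), so no level is given. In satellite glia 3 UMIs made 0.122 to 0.153 CPM, and Stat2 averaged 31.5 CPM there. Whether the counting or the annotation kept Irf9 this low was not tested.

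Ifih1, which encodes the cytoplasmic sensor MDA5, stood at 494 ± 27.7 CPM in satellite glia, and all 4 libraries there lay above all libraries of the next class, macrophages, at 196 ± 55.0. The guanylate-binding proteins, GTPases that attack vacuoles of intracellular pathogens, also had their highest class means in satellite glia. Gbp5 had 900 and 907 CPM in the satellite glia of the CPIP libraries and 861 and 760 CPM in those of the Sham libraries (857 ± 67.6), above endothelial cells at 505 ± 11.5. Gbp7 averaged 492 ± 53.0 CPM in satellite glia and 300 ± 12.2 CPM in endothelial cells, without overlap. Gbp2 averaged 388 ± 29.4 CPM in satellite glia and 354 ± 18.9 CPM in endothelial cells, where the ranges overlapped. In neurons each of the 3 genes had its lowest class mean, between 17.9 and 20 CPM.

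The Ifit family, whose members act against translation of viral RNA, had its highest sum in endothelial cells. Ifit3 averaged 672 ± 141 CPM in endothelial cells, and its lowest endothelial library lay above every library of pericytes, the next class at 170 ± 77.9 CPM. Ifit2 averaged 338 ± 41.5 CPM in endothelial cells and 70.3 ± 23.1 CPM in satellite glia, again apart. Summed over its 4 members, the family stood at 1084 ± 201 CPM in endothelial cells and 179 ± 46.0 CPM in satellite glia.

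The membrane proteins had their highest levels in the vessel wall. Ifitm3, which hinders fusion of viruses with endosomes, averaged 1123 ± 76.4 CPM in pericytes and 871 ± 97.4 CPM in endothelial cells, without overlap between the libraries. Bst2, the tetherin that holds budding virus at the cell surface, averaged 27.0 ± 2.51 CPM in endothelial cells and 13.7 ± 3.94 CPM in macrophages, its next class. Herc6, a member of the HERC ubiquitin ligase family, averaged 85.3 ± 12.4 CPM in endothelial cells and 38.8 ± 29.0 CPM in neutrophils and monocytes. Isg15, the ubiquitin-like modifier itself, was rare, with 88 and 91 UMIs in all cells of CPIP and 110 and 113 UMIs in all cells of Sham.

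Other members marked other cells. Oasl, of the oligoadenylate synthetase family, averaged 482 ± 150 CPM in macrophages and 114 ± 59.6 CPM in neutrophils and monocytes, which did not overlap. Mx1 was also highest in macrophages, at 85.1 ± 46.0 CPM, while Mx2 was highest in satellite glia, at 87.4 ± 12.6 CPM. Ifi27l2b averaged 136 ± 68.5 CPM in neurons, its highest class. Oas2 had 11 and 26 UMIs in all cells of CPIP and 15 and 15 UMIs in all cells of Sham. Of the 32 genes, 12 had their highest class mean in satellite glia and 11 in endothelial cells. Another 3 had it in pericytes, 3 in macrophages, 2 in neutrophils and monocytes and 1 in neurons. For 14 of the 32 the libraries of the highest class lay above all libraries of the next class. The satellite glia count includes Irf9, with its single UMI. Ddx60 in neutrophils and monocytes and Oas2 in macrophages averaged below the level of 3 UMIs in every library of that class. Ifit1bl in neutrophils and monocytes and Stat2 in pericytes averaged near that level. The highest class of these genes is therefore uncertain, and none of them is among the 14.

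**Figure D2:**
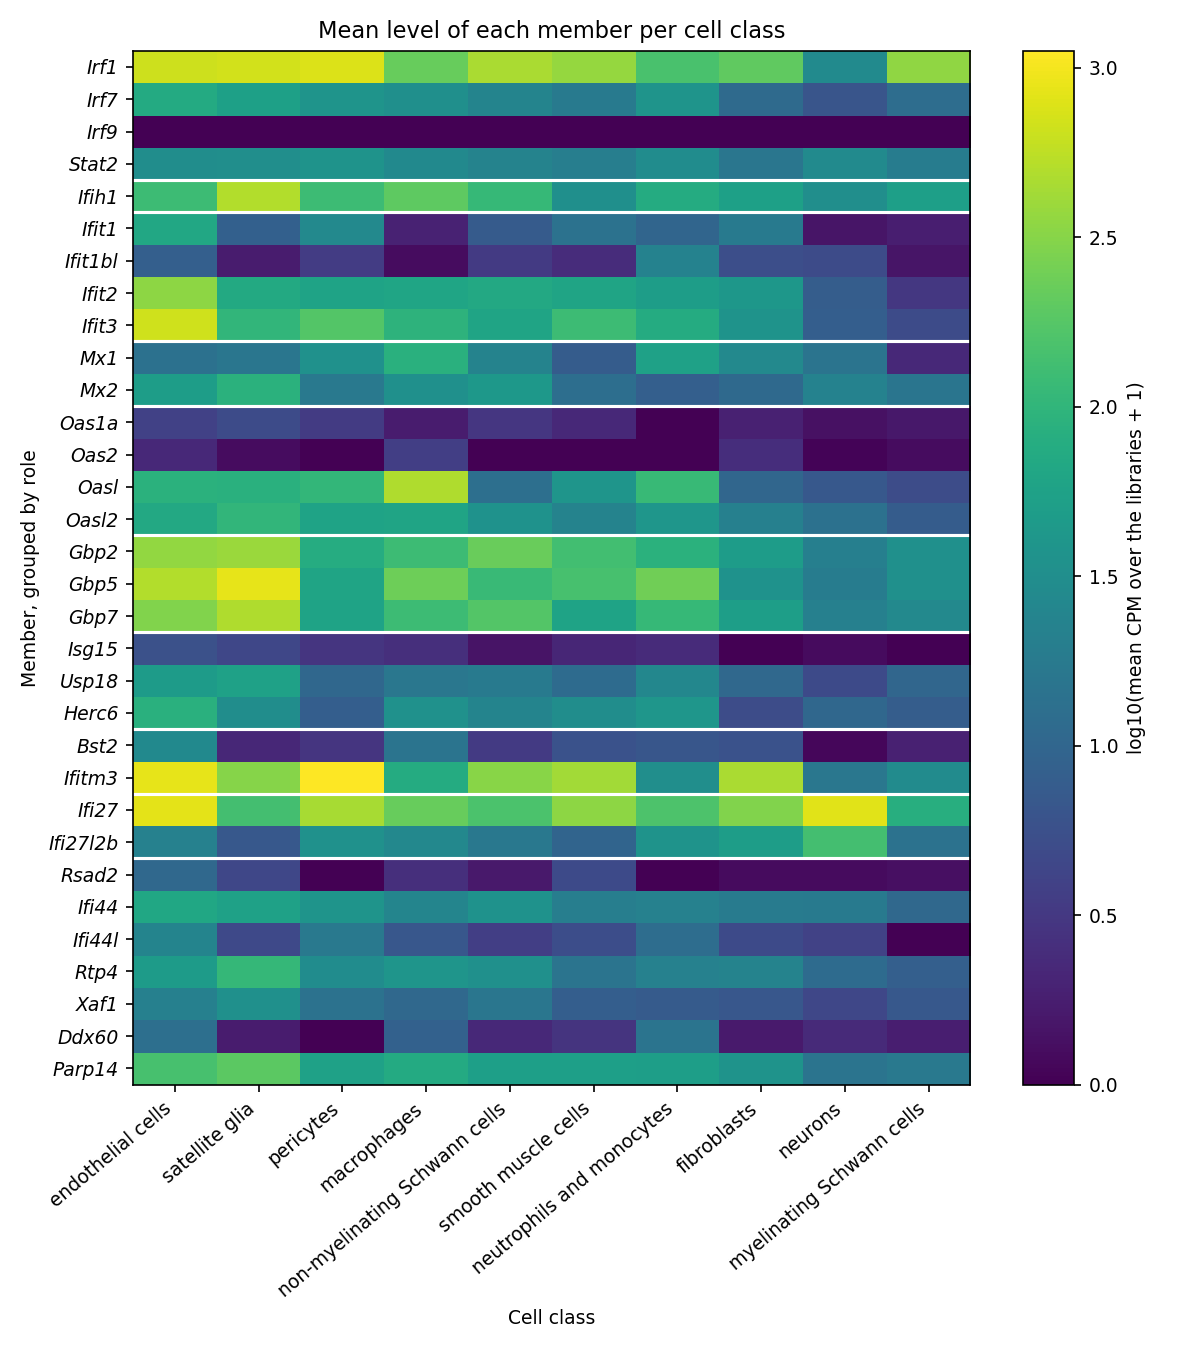
Mean level of each gene (rows, grouped by role) in each of 10 classes (columns), over 4 libraries, on a log10 colour scale of CPM plus 1. Gbp5, Gbp7 and Ifih1 are strongest in satellite glia, Ifit2 and Ifit3 in endothelial cells, Oasl in macrophages and Ifi27l2b in neurons.

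Both classes with the highest levels were then compared gene by gene, with the library as a block, by the quasi-likelihood test of edgeR with Benjamini-Hochberg adjustment over all genes tested. A gene is called below where its adjusted p was under 0.05. Of the 30 members tested, 24 were called, 13 higher and 11 lower in endothelial cells than in satellite glia. Among all 12372 genes tested, 72.6% were called, 35.5% higher and 37.1% lower, so a call was the common outcome between these classes and the members' count is read against that share; Irf9 and Oas2 were too low to be tested.

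The members more than 2 log2 units higher in endothelial cells were Bst2, Ifit1, Ifit1bl, Ifit2, Ifit3, Ifi27, Ifi44l and Ddx60. Other induced genes, such as Mx2, Rtp4 and Oasl2, were lower there, and some were not called, as given below. Bst2 averaged 27.0 ± 2.51 CPM in endothelial cells and 1.21 ± 0.60 CPM in satellite glia (log2 difference 4.41 ± 0.20 SE, adjusted p = 1.12e-12, edgeR). Ddx60, a helicase-like antiviral factor, averaged 11.9 ± 1.54 CPM in endothelial cells and 0.698 ± 0.31 CPM in satellite glia (4.01 ± 0.26). Ifit1bl averaged 7.47 ± 1.52 CPM and 0.691 ± 0.24 CPM in the same order (3.30 ± 0.29), and Ifit1, which binds viral RNA that lacks host cap methylation, 67.1 ± 51.3 CPM and 7.64 ± 6.91 CPM (3.10 ± 0.24). All these differences held in every library.

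Ifit3 had 523 and 856 CPM in the endothelial cells of CPIP and 695 and 612 CPM in those of Sham, while satellite glia had 98.3 and 78.8 CPM in CPIP and 138 and 86.2 CPM in Sham (2.66 ± 0.13, adjusted p = 4.46e-12, edgeR). Ifi27, a mitochondrial protein, averaged 836 ± 207 CPM in endothelial cells and 136 ± 47.6 CPM in satellite glia (2.57 ± 0.10). Smaller differences with a higher endothelial level were called for Ifi44l (2.52), Ifit2 (2.22), Ifi27l2b (1.66), Herc6 (1.42), Rsad2 (1.41), Ifitm3 (1.40) and Irf7 (0.31).

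On the other side, Ifih1 had 112 and 146 CPM in the endothelial cells of CPIP and 126 and 101 CPM in those of Sham, while satellite glia had 518 and 476 CPM in CPIP and 517 and 464 CPM in Sham (log2 difference -2.13 ± 0.08, adjusted p = 7.53e-14, edgeR). Rtp4 averaged 46.8 ± 6.64 CPM in endothelial cells and 106 ± 12.6 CPM in satellite glia (-1.28 ± 0.08), and Mx2 49.1 ± 10.8 CPM and 87.4 ± 12.6 CPM in the same order (-0.94 ± 0.10). Gbp5 (-0.85), Gbp7 (-0.80), Xaf1 (-0.80), Oasl2 (-0.63), Parp14 (-0.50), Usp18 (-0.33), Gbp2 (-0.22) and Irf1 (-0.14) were also called lower in endothelial cells. Of these, Gbp2 (-0.13) and Irf1 (-0.05) were not called without TMM scaling, nor with the unnamed glial cluster described below added to satellite glia. Isg15, Ifi44, Oasl, Stat2, Mx1 and Oas1a were not called. By family, the endothelial side held all 4 Ifit genes and both membrane proteins, and the glial side held the 3 guanylate-binding proteins and the RNA sensor.

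**Figure D3:**
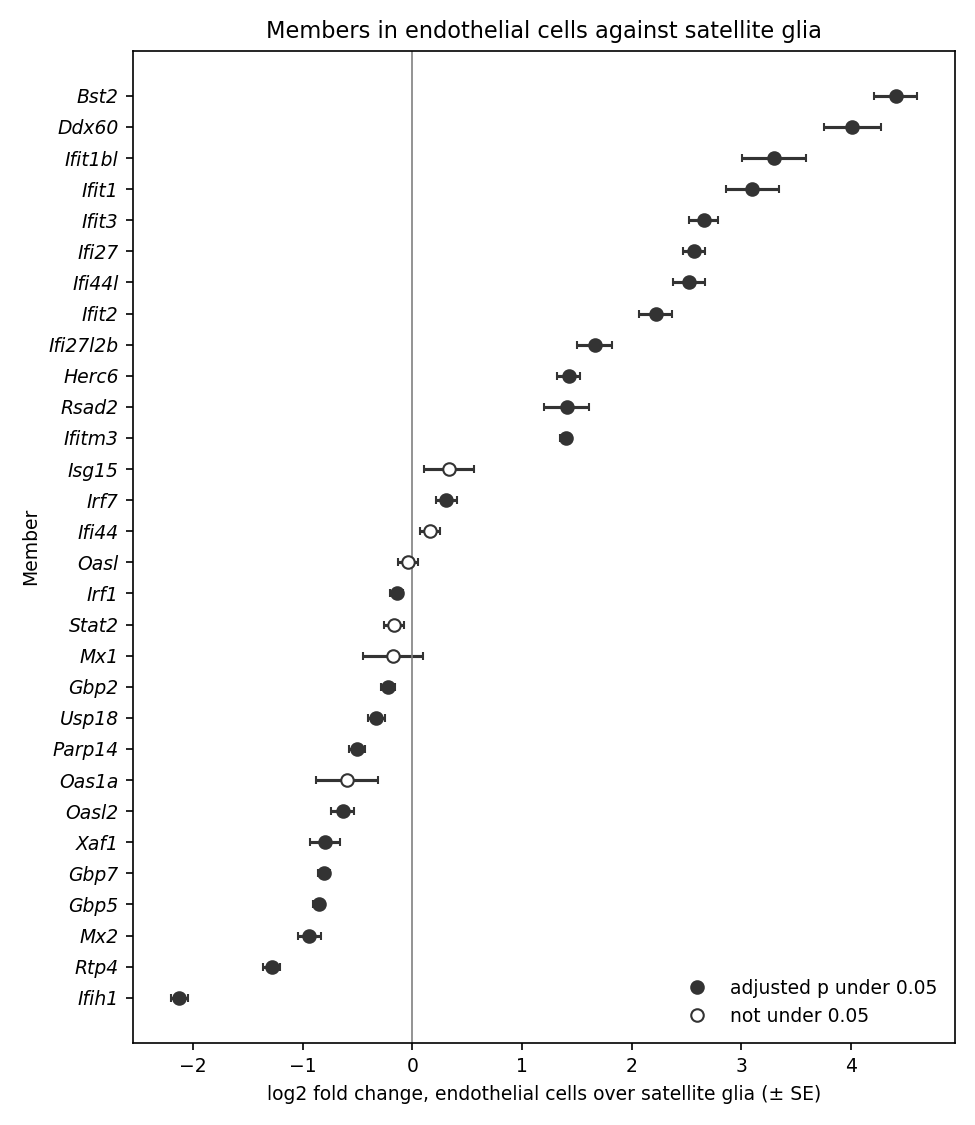
Log2 difference of endothelial cells over satellite glia (horizontal axis) for the 30 members tested (rows), with standard errors from edgeR as bars, filled points for called genes and open points for the others. Bst2 stands at 4.41 at the upper end and Ifih1 at -2.13 at the lower end, and the genes that were not called lie between -0.60 and 0.34.

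Markers of other classes were summed in the same way. The 12 satellite glia markers, all detected, summed to 5448 and 5592 CPM in endothelial cells of CPIP and 6202 and 5889 CPM in those of Sham, against 12979 CPM in satellite glia. The 11 endothelial markers summed to 15.2 to 20.7 CPM in satellite glia, against 10022 CPM in endothelial cells. The 13 macrophage markers summed to 19.6 to 29.2 CPM in endothelial cells, with Cd163, C1qa, C1qb and Adgre1 at 0, and to 6.33 to 14.7 CPM in satellite glia, against 29813 CPM in macrophages. The part of the glial and myeloid markers in the differences was not tested. A marker sum, here and below, cannot tell RNA of other cells from transcripts that the class makes itself.

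Within a class, the genes were unevenly spread over cells. Cells were thinned to 1000 UMIs each so that depth was equal, which left out 64 and 73 endothelial cells of CPIP and 106 and 89 of Sham, and 108 and 91 satellite glia of CPIP and 124 and 74 of Sham. At least 1 UMI of the 32 genes was found in 97.2 and 99.5% of endothelial cells of CPIP and in 97.0 and 98.3% of those of Sham. In satellite glia the shares were 88.5 and 91.6% in CPIP and 90.2 and 89.5% in Sham. Without thinning, the satellite glia share averaged 97.1% over the 4 libraries, so the share moves with depth. No class is known to lack these genes, so a background share from free RNA could not be given. For CPIP against Sham the two-sided exact permutation p of these shares was 0.67 in endothelial cells and 1 in satellite glia; with 2 against 2 libraries it cannot go below 0.33.

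The variance of the members' UMIs per cell, divided by their mean, is 1 where molecules fall on cells at random. It was 2.28 and 1.96 in endothelial cells of CPIP and 2.30 and 2.60 in those of Sham, and 2.63 and 2.56 in satellite glia of CPIP and 2.73 and 2.63 in those of Sham. Every library lay above 1. Both CPIP libraries lay below both Sham libraries in endothelial cells, while in satellite glia CPIP 1 and Sham 2 agreed to 2 decimals. The exact permutation p was 0.33 in each class, the smallest that can be reached. The separation in endothelial cells was found at this depth only: thinned to 500 UMIs the values were 1.83 and 1.5 in CPIP and 1.59 and 1.65 in Sham, and at 2000 UMIs 3.59 and 2.78 in CPIP and 3.14 and 3.52 in Sham, an overlap at both. The 5% of cells with most member UMIs held 13.9 and 11.8% of them in endothelial cells of CPIP and 13.5 and 14.2% in those of Sham. In satellite glia that share was 15.6 and 15.1% in CPIP and 16.1 and 16.5% in Sham.

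Single genes differed in this spread. In satellite glia Gbp5 had a variance over mean of 2.31 to 2.60 over the 4 libraries, where the 90th percentile of all genes with a mean of at least 0.05 UMIs per cell was 1.15 to 1.18. Ifit3 (1.71 to 2.09), Gbp7 (1.63 to 1.69), Gbp2 (1.48 to 1.66), Irf1 (1.44 to 1.60) and Ifih1 (1.43 to 1.55) also lay above that percentile in all 4 libraries. The percentile was not matched for mean, and these genes averaged from 0.089 UMIs per cell (Ifit3) to 0.74 (Gbp5). Because variance over mean can depend on the mean, these values do not order the genes by unevenness. In endothelial cells Ifit3 stood at 1.71 to 2.29 and Gbp5 at 1.59 to 2.26, against a 90th percentile of 1.22 to 1.24.

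Part of this spread followed sub-clusters, which were formed without the 32 genes and are described without a test. Among satellite glia, the cluster led by Lif (3858 cells, median 7050 UMIs) had the highest summed level, at 5410 and 5942 CPM in CPIP and 5848 and 5306 CPM in Sham, in 4 of 4 libraries. The cluster led by Txnip (3957 cells, median 3298 UMIs) averaged 2715 ± 280 CPM. A neighbouring cluster led by Hpdl and Id3 (1626 cells, median 4210 UMIs), which the marker rule left without a class name and which is not among the satellite glia above, stood at 807 and 1034 CPM in CPIP and 1105 and 842 CPM in Sham.

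That unnamed cluster had the lowest level of 20 of the 23 members that reached 10 CPM in any of these clusters. Gbp5 averaged 90.4 CPM there and 1207 CPM in the Lif-led cluster, and Ifih1 52.3 CPM there and 670 CPM in the Lif-led cluster. Ifi27 did not follow this order, at 154 CPM in the unnamed cluster and 133 CPM in the Lif-led cluster. Immediate early genes, which many cells switch on during dissociation (a list added after these clusters had been seen), summed to 1419 CPM in the unnamed cluster and to between 6988 and 8622 CPM in the satellite glia clusters; their part in the members' level was not tested.

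Among endothelial cells, the sub-cluster led by Sele, Ackr1 and Selp, adhesion molecules and a chemokine receptor known from venules, was highest in 4 of 4 libraries (380 cells). Its summed level was 6412 and 8933 CPM in CPIP and 8170 and 6879 CPM in Sham, while the other sub-clusters of more than 100 cells averaged between 4329 and 5670 CPM. Ifit3 averaged 1480 CPM there, against 293 to 608 CPM in the others. The neutrophil and monocyte markers summed to 253 CPM in this sub-cluster and to between 37.7 and 75.0 CPM in those others, against 31666 CPM in neutrophils and monocytes; their part in the higher level was not tested.

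CPIP was compared with Sham in each of the 10 classes, as 2 against 2 library sums. No member was called in any class by edgeR's quasi-likelihood test, in 183 tests of a member in a class, and none by DESeq2. At an unadjusted p under 0.05 there were 26 of the 183 (14.2%), against 3145 of 74152 tests over all genes (4.24%). The members' tests share libraries and cells and are not independent of each other. Fitted log2 fold changes of CPIP over Sham were positive in 93 and negative in 90 of the 183. In all cells summed, 31 members could be tested, none was called (0.0% of 15894 genes were), and 4 had an unadjusted p under 0.05, against 5.06% of all genes: Ifitm3 and Gbp5 with positive and Mx1 and Mx2 with negative fold changes. Single libraries weighed heavily on the fold changes. Calls named below from fits without 1 library rest on a group of 1 library. They are given only to show how the values moved.

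In satellite glia 30 members were tested and 0.0% of 12918 genes were called. Fold changes were positive for 14 members and negative for 16, with a median of -0.05 beside 0.01 for all genes, and 1 member had an unadjusted p under 0.05, against 3.3% of all genes. Without Sham 1, 21 were positive and 9 negative (median 0.11), and without Sham 2, 9 were positive and 21 negative (median -0.22). Gbp5 had a log2 fold change of 0.17 ± 0.08. Ifih1 had 518 and 476 CPM in CPIP and 517 and 464 CPM in Sham (0.04 ± 0.09), so that its libraries interleaved.

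Irf1 had 575 and 969 CPM in satellite glia of CPIP and 554 and 686 CPM in those of Sham (0.33 ± 0.25), with CPIP 2 above the other libraries; without CPIP 1 the value was 0.66 and was called, and without CPIP 2 it was -0.09. Ifitm3 had 312 and 368 CPM in CPIP and 307 and 254 CPM in Sham (0.29 ± 0.12). Parp14, an ADP-ribosyltransferase, had 245 and 167 CPM in CPIP and 142 and 216 CPM in Sham (0.22 ± 0.26), an overlap. The lowest fold changes among members of at least 10 CPM were those of Mx1, Oasl and Ifi27.

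Mx1 had 7.80 and 7.69 CPM in satellite glia of CPIP and 34.6 and 9.01 CPM in those of Sham (-1.46 ± 0.60), and Sham 1 set this value. Oasl had 73.7 and 68.5 CPM in CPIP and 108 and 87.1 CPM in Sham (-0.44 ± 0.12, unadjusted p = 0.0122, adjusted p = 0.98, edgeR), without overlap. Ifi27 had 68.5 and 163 CPM in CPIP and 175 and 139 CPM in Sham (-0.42 ± 0.39); without CPIP 2 this became -1.18 and was called, and without CPIP 1 it was 0.07. Adjusted p-values of all members in satellite glia were 0.98 or higher. The macrophage markers summed to 9.26 and 14.7 CPM in satellite glia of CPIP and 7.84 and 6.33 CPM in those of Sham, and their part in these values was not tested.

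In endothelial cells 29 members were tested, and 0.0102% of 9771 genes were called. Fold changes were positive for 22 members and negative for 7, with a median of 0.14 beside 0.00 for all genes. The median depended on single libraries: it was -0.03 without CPIP 2, -0.03 without Sham 2 and 0.34 without CPIP 1. Both CPIP libraries lay above both Sham libraries for 7 of the 29 and below them for 2, where 13.9% of all genes lay above and 20% below.

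Herc6 had 93.5 and 98.4 CPM in endothelial cells of CPIP and 74.6 and 74.9 CPM in those of Sham (0.38 ± 0.11, unadjusted p = 0.00691, adjusted p = 0.96, edgeR), without overlap. Ifitm3 had 913 and 988 CPM in CPIP and 801 and 781 CPM in Sham (0.29 ± 0.09), also without overlap. Ifi44 had 70.0 and 74.9 CPM in CPIP and 62.3 and 51.9 CPM in Sham (0.37 ± 0.13). These 3 were the members with an unadjusted p under 0.05, which 4.61% of all genes had.

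Ifit1 had 72.3 and 128 CPM in endothelial cells of CPIP and 3.06 and 64.6 CPM in those of Sham (1.55 ± 0.71). The low value was that of Sham 1, with 8 UMIs against 188 to 312 in the other libraries, and the same library was low in satellite glia, with 7 UMIs against 139 to 371. Ifit1bl and Ifit2 did not show this gap in Sham 1: Ifit1bl had 8.33 and 6.17 CPM in endothelial cells of CPIP and 9.18 and 6.19 CPM in those of Sham, and Ifit2 had 289 and 373 CPM in endothelial cells of CPIP and 373 and 319 CPM in those of Sham. Whether the counting split reads between near-identical Ifit copies was not tested, so the values of Ifit1 and Ifit1bl are uncertain.

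Ifi27 had 605 and 1103 CPM in endothelial cells of CPIP and 855 and 780 CPM in those of Sham (0.09 ± 0.23), with both CPIP libraries outside the range of Sham on opposite sides. Ifit3 was alike in this, at 0.10 ± 0.20. Ifi27l2b had 14.8 and 36.2 CPM in CPIP and 19.9 and 12.0 CPM in Sham (0.70 ± 0.41). Without CPIP 1, all 3 were called, at 0.46 for Ifi27, 0.42 for Ifit3 and 1.22 for Ifi27l2b, and without CPIP 2 all 3 fold changes were negative. Oasl (-0.32 ± 0.24), Gbp2 (-0.10 ± 0.09) and Xaf1 (-0.07 ± 0.33) had the lowest fold changes among members of at least 10 CPM. The neutrophil and monocyte markers summed to 128 and 98.0 CPM in endothelial cells of CPIP and 111 and 71.2 CPM in those of Sham. The 3 erythroid markers, all detected, summed to 66.6 and 1477 CPM in endothelial cells of CPIP and 18.7 and 1.03 CPM in those of Sham. The part of both marker lists was not tested.

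**Figure D4:**
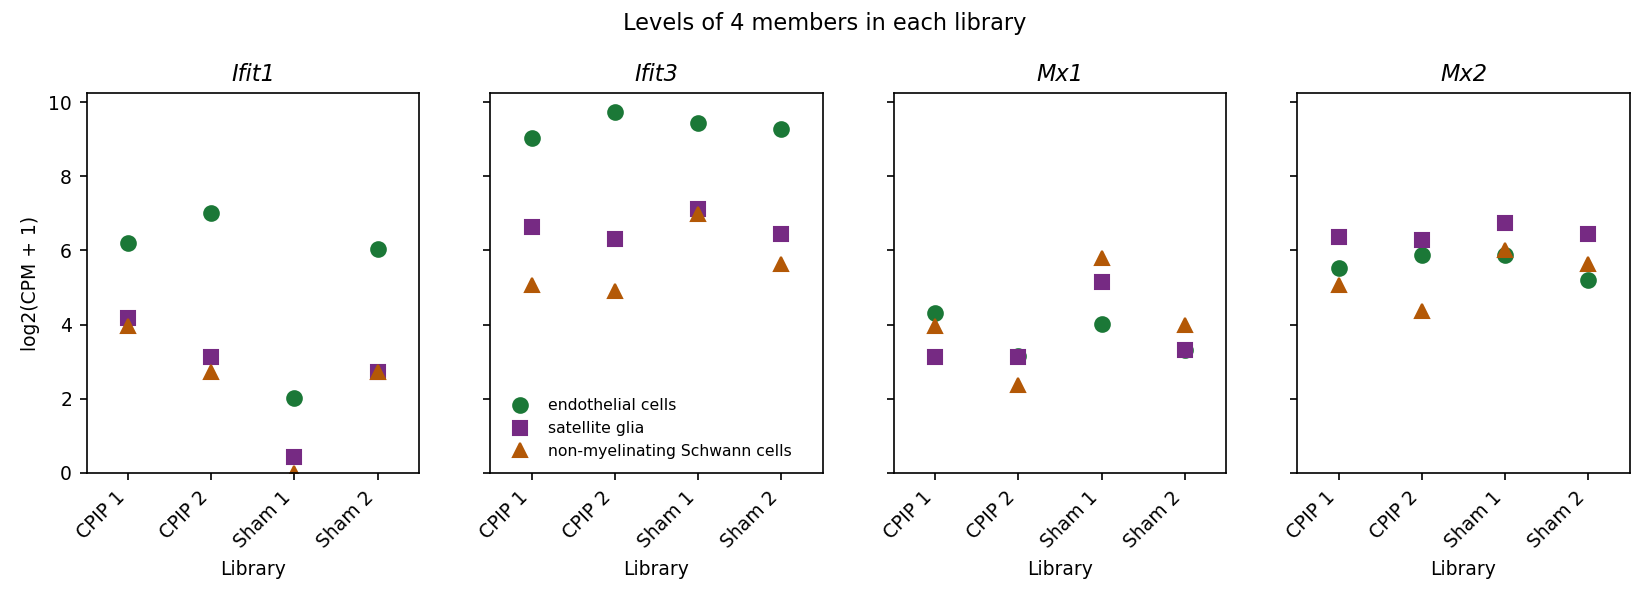
Level of Ifit1, Ifit3, Mx1 and Mx2 (panels) as log2 of CPM plus 1 (vertical axis) in each library (horizontal axis, CPIP left of Sham), in endothelial cells, satellite glia and non-myelinating Schwann cells. Ifit1 in Sham 1 stands apart at 3.06 CPM in endothelial cells, and Mx1 in Sham 1 is highest in both glial classes, at 34.6 CPM in satellite glia.

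The difference between both classes in their CPIP over Sham effect was tested by the class by group term in the same fit. None of the 30 members was called by edgeR, while 3 of 12372 genes were (0.0242%), and 5 members had an unadjusted p under 0.05, against 4.3% of all genes. The term was positive, meaning a higher CPIP over Sham ratio in endothelial cells than in satellite glia, for 25 of the 30, with a median of 0.25, where 52.5% of all genes had a positive term and the median was 0.01. This direction rested on CPIP 2: without it 14 were positive and 16 negative, with a median of -0.05. Ifi27 had a difference of 0.59 ± 0.12 (adjusted p = 0.18, edgeR) and Mx1 of 1.57 ± 0.39 (adjusted p = 0.61). The members' median term was 0.49 without CPIP 1, 0.18 without Sham 1 and 0.14 without Sham 2.

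In neurons 26 members were tested, and 0.00733% of 13638 genes were called. Fold changes were positive for 13 and negative for 13 (median 0.02). An unadjusted p under 0.05 was found for 7 members, against 3.92% of all genes, and both CPIP libraries lay above both Sham libraries for 9 of the 26 and below for 5, where 15% of all genes lay above and 17.9% below.

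Ifi27 had 697 and 973 CPM in neurons of CPIP and 784 and 790 CPM in those of Sham (0.09 ± 0.15), so CPIP lay on both sides of Sham. Ifi27l2b had 109 and 239 CPM in CPIP and 107 and 91.9 CPM in Sham (0.81 ± 0.34), with CPIP 2 far above the rest. Ifitm3 had 15.1 and 24.7 CPM in CPIP and 8.84 and 11.3 CPM in Sham (0.99 ± 0.26, unadjusted p = 0.00993, adjusted p = 0.97, edgeR). Irf1 had 25.8 and 43.3 CPM in CPIP and 17.9 and 23.2 CPM in Sham (0.76 ± 0.26), and Ifih1 31.0 and 38.4 CPM in CPIP and 26.7 and 28.1 CPM in Sham (0.35 ± 0.13). For these last 3 genes the groups did not overlap. Without CPIP 1 they were called, at 1.30 for Ifitm3, 1.08 for Irf1 and 0.49 for Ifih1, as was Ifi27l2b at 1.27, and without CPIP 2 Xaf1 was called at -1.48 at a level of 1.51 CPM in CPIP 1.

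The neuronal levels of Ifitm3 and Irf1 were small beside those in glia and vessels. In neurons, satellite glia markers summed to 612 and 682 CPM in CPIP and 528 and 621 CPM in Sham, and endothelial markers to 24.1 and 23.9 CPM in CPIP and 21.8 and 29.7 CPM in Sham; their part in these values was not tested. Mx1 had 10.1 and 11.7 CPM in neurons of CPIP and 14.6 and 18.5 CPM in those of Sham (-0.59 ± 0.17), without overlap. Ifi44 had -0.27 ± 0.11, also without overlap, and Mx2 -0.19 ± 0.14, with an overlap.

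In macrophages 19 members were tested and 0.0% of 6218 genes were called. Fold changes were negative for 17 of the 19, with a median of -0.38 beside 0.00 for all genes, and both CPIP libraries lay below both Sham libraries for 5, where 17.8% of all genes did. That direction rested on Sham 1: without it the median was 0.13. Mx2 and Oasl2 had an unadjusted p under 0.05, against 5.53% of all genes. The class held 259 and 371 cells in CPIP and 176 and 133 cells in Sham. The 12 satellite glia markers, all detected, summed to 2735 and 3565 CPM in macrophages of CPIP and 4091 and 3875 CPM in those of Sham, against 12979 CPM in satellite glia, the class in which Mx2 and Oasl2 were highest; their part in the result was not tested.

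Mx2 had 22.9 and 11.1 CPM in macrophages of CPIP and 54.3 and 43.8 CPM in those of Sham (-1.57 ± 0.43, unadjusted p = 0.0030, adjusted p = 0.64, edgeR), and without CPIP 1 it was called at -2.12. Oasl had 394 and 471 CPM in CPIP and 697 and 365 CPM in Sham (-0.29 ± 0.26), and Gbp5 206 and 187 CPM in CPIP and 409 and 140 CPM in Sham (-0.50 ± 0.35), with Sham 1 highest in both. Mx1 (-0.71 ± 0.38) and Rtp4 (-0.75 ± 0.40) were likewise highest in Sham 1. Irf1 had 146 and 309 CPM in CPIP and 215 and 213 CPM in Sham (0.13 ± 0.30), Ifit2 had 0.04 ± 0.38 and Gbp2 -0.06 ± 0.36.

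In non-myelinating Schwann cells 21 members were tested and 0.0286% of 6999 genes were called. Fold changes were negative for 16 of the 21 (median -0.30, beside -0.00 for all genes), and 6 had an unadjusted p under 0.05, all with negative values, against 5.43% of all genes. The direction rested largely on Sham 1: without it 11 members were positive and 12 negative, with a median of -0.10. Both CPIP libraries lay below both Sham libraries for 9 of the 21, where 17.6% of all genes did.

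Ifit3 had 32.6 and 29.2 CPM in non-myelinating Schwann cells of CPIP and 126 and 48.5 CPM in those of Sham (-1.51 ± 0.34, unadjusted p = 0.000172, adjusted p = 0.15, edgeR), the member closest to a call in this class. Mx2 had 32.6 and 19.5 CPM in CPIP and 64.0 and 48.5 CPM in Sham (-1.08 ± 0.33), and Ifit2 59.9 and 41.7 CPM in CPIP and 95.2 and 74.6 CPM in Sham (-0.72 ± 0.25). For all 3 the CPIP libraries lay below the Sham libraries. Mx1 (-1.81 ± 0.55), Oasl (-1.61 ± 0.58) and Oasl2 (-0.90 ± 0.36) were the other members with an unadjusted p under 0.05. Ifit3 was called without CPIP 1 (-1.61), CPIP 2 (-1.44) or Sham 2 (-2.0) but not without Sham 1. Mx1 was called without CPIP 1 (-3.05) or Sham 2 (-2.41), and Mx2 without CPIP 1 (-1.53).

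Other members of that class did not share the direction. Irf1 had 374 and 555 CPM in CPIP and 351 and 554 CPM in Sham (0.04 ± 0.19), Ifitm3 had 0.12 ± 0.16 and Gbp2 -0.09 ± 0.16. Gbp7 had 0.18 ± 0.22 and Ifi27l2b 0.54 ± 0.48. The 13 macrophage markers summed to 29.4 and 33.4 CPM in non-myelinating Schwann cells of CPIP and 15.6 and 14.9 CPM in those of Sham, with Ms4a7, Fcgr1a, Cd163, C1qa and Aif1 at 0. The 11 endothelial markers, all detected, summed to 59.9 and 57.0 CPM in CPIP and 84.2 and 78.3 CPM in Sham, against 10022 CPM in endothelial cells. The part of both marker lists in the result was not tested.

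In smooth muscle cells 14 members were tested and 0.0% of 5678 genes were called. Fold changes were positive for 13 of the 14 (median 0.50), and both CPIP libraries lay above both Sham libraries for 6, where 19.3% of all genes did. Ifit3 had 106 and 246 CPM in CPIP and 73.9 and 57.3 CPM in Sham (1.39 ± 0.34, unadjusted p = 0.00134, adjusted p = 0.46, edgeR), without overlap. Gbp2 (0.86 ± 0.32), Gbp5 (0.95 ± 0.36) and Ifitm3 (0.53 ± 0.22) were the other members with an unadjusted p under 0.05, against 5.27% of all genes; CPIP 2 was highest in each. Ifit3 was called without CPIP 1 (1.84), Sham 1 (1.65) or Sham 2 (1.19) but not without CPIP 2. Gbp5 was called without CPIP 1 (1.38) or Sham 1 (1.51), Gbp2 without CPIP 1 (1.28) and Ifit2 without Sham 1 (2.09). The class held 124 and 151 cells in CPIP and 197 and 201 cells in Sham, and its macrophage markers summed to 43.7 and 46.7 CPM in CPIP and 13.2 and 33.3 CPM in Sham. The 11 endothelial markers, all detected, summed to 2518 and 2792 CPM in smooth muscle cells of CPIP and 2266 and 1714 CPM in those of Sham, and the 7 pericyte markers, all detected, to 1000 and 1202 CPM in CPIP and 565 and 839 CPM in Sham. The 12 satellite glia markers, all detected, summed to 4476 and 4463 CPM in CPIP and 3834 and 3780 CPM in Sham. The part of these markers was not tested. With members among the clustering genes, or at resolution 0.5, 3 members could be tested in smooth muscle cells, 2 with positive fold changes. The class then held 533 or 536 cells, against 673 here. With members among the clustering genes its summed level was 938 CPM, so the values above rest on which cells were counted in the class.

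In myelinating Schwann cells 12 members were tested and 0.0143% of 6990 genes were called. Irf1 had 299 and 467 CPM in CPIP and 293 and 318 CPM in Sham (0.31 ± 0.17; 0.61 and called without CPIP 1). Ifi27 had 46.5 and 87.7 CPM in CPIP and 96.9 and 93.0 CPM in Sham (-0.54 ± 0.25, unadjusted p = 0.0448, adjusted p = 0.92, edgeR), without overlap, and without CPIP 2 it was called at -1.06. Ifih1 (0.21 ± 0.24), Ifi27l2b (0.81 ± 0.57), Parp14 (0.27 ± 0.48), Mx2 (-0.55 ± 0.46) and Stat2 (-0.49 ± 0.45) had wide errors at the low levels of this class. Ifi27 was the only member of the 12 with an unadjusted p under 0.05, against 5.22% of all genes.

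Fibroblasts (17 members tested), neutrophils and monocytes (9) and pericytes (6) had 0.0% of all genes called, and their members' median fold changes were 0.19, 0.23 and 0.15. An unadjusted p under 0.05 was found for 0 members in fibroblasts, 2 in neutrophils and monocytes and 0 in pericytes, against 2.11%, 3.72% and 4.23% of all genes in the same order. In neutrophils and monocytes, with 103 and 88 cells in CPIP and 81 and 35 cells in Sham, Ifit3 had 183 and 82.0 CPM in CPIP and 15.5 and 13.9 CPM in Sham (3.11 ± 0.73, unadjusted p = 0.00271, adjusted p = 0.93, edgeR). Both Sham values of Ifit3 lay below the level of 3 UMIs, 23.2 CPM in Sham 1 and 41.6 CPM in Sham 2, so its fold change is uncertain. Oasl had 177 and 148 CPM in CPIP and 46.5 and 83.1 CPM in Sham (1.43 ± 0.46). Both were higher in each CPIP library than in either Sham library, from few cells, and without CPIP 2 Ifit3 was called at 3.56. The 13 macrophage markers, of which Ms4a7, Cd163, C1qa, C1qb and C1qc were at 0, summed to 11142 and 12793 CPM in neutrophils and monocytes of CPIP and 7240 and 9269 CPM in those of Sham, against 29813 CPM in macrophages, the class in which Oasl was highest. The 11 endothelial markers, with Vwf and Cdh5 at 0, summed to 111 and 92.9 CPM in CPIP and 77.4 and 83.1 CPM in Sham. The part of these markers in the values was not tested.

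**Figure D5:**
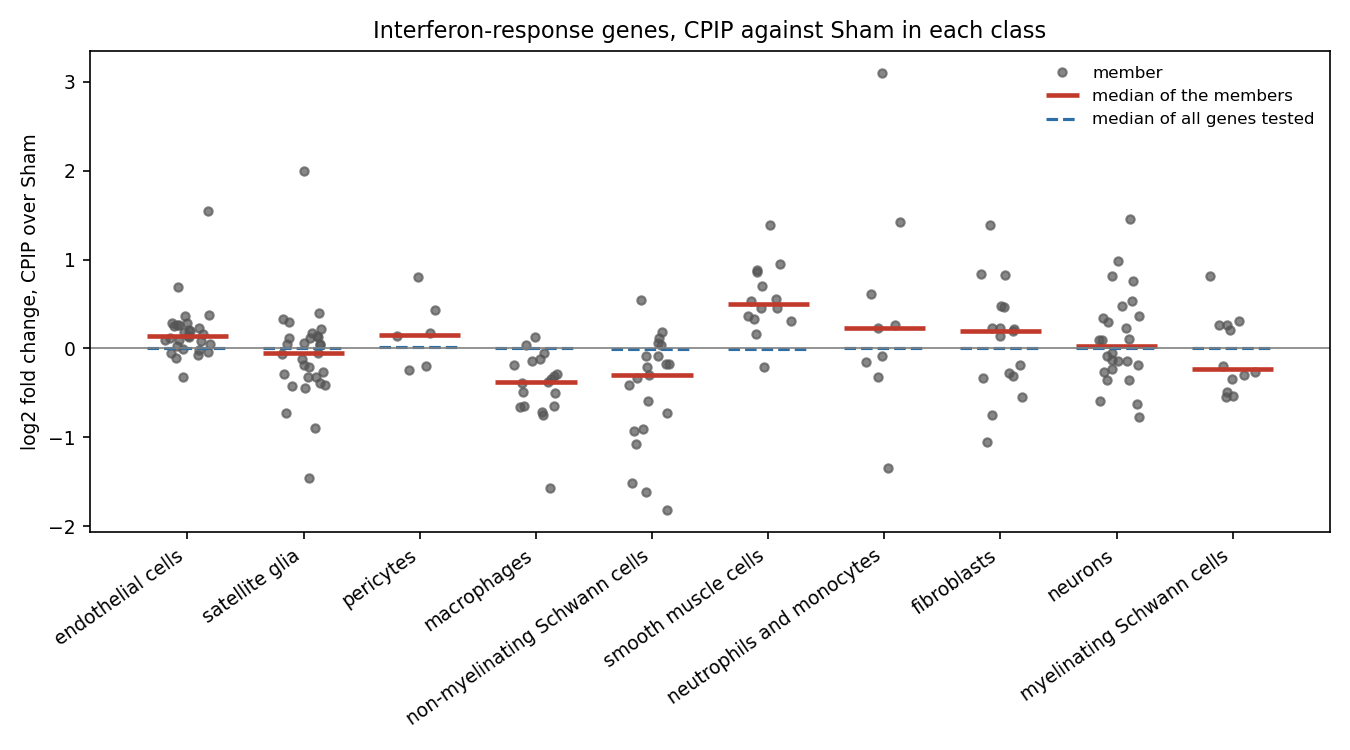
Log2 fold change of CPIP over Sham (vertical axis) for each member tested (points) in each of 10 classes (horizontal axis), with the median of the members as a solid bar and that of all genes tested as a dashed bar. The medians run from -0.38 in macrophages to 0.50 in smooth muscle cells, and no point was called.

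Other parts of the pathway were described from 6 lists. The 8 interferon genes found among the features were too low to be tested in any class. Ifnb1, a type I interferon, had 1 and 1 UMIs in macrophages of CPIP and 4 and 0 UMIs in those of Sham, Ifne had 1 and 2 UMIs in neurons of CPIP and 3 and 2 UMIs in those of Sham, and Ifnk had 0 and 0 UMIs in neurons of CPIP and 5 and 2 UMIs in those of Sham. Interferon-gamma receptor and type I receptor genes were measured in both main classes: Ifngr1 averaged 158 ± 22.5 CPM and Ifnar1 131 ± 8.26 CPM in endothelial cells, and Ifngr2 131 ± 15.9 CPM and Ifnar2 84.8 ± 2.93 CPM in satellite glia.

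No gene of the 6 lists was called between CPIP and Sham in endothelial cells or in satellite glia. Among all genes tested, 50.5% had positive fold changes in endothelial cells and 52.6% in satellite glia. Positive fold changes were found for 3 of 4 receptors in endothelial cells and 5 of 5 in satellite glia (medians 0.01 and 0.12), and for 4 of 7 and 6 of 9 signal transducers and factors (0.03 and 0.07). They were found for 2 of 6 nucleic acid sensors in endothelial cells and 2 of 5 in satellite glia (-0.08 and -0.01), for 9 of 10 and 7 of 11 feedback inhibitors (0.16 and 0.07), and for 21 of 35 and 19 of 38 further interferon-induced genes (0.02 and 0.00). Cxcl10, a chemokine induced by interferon, averaged 2807 ± 352 CPM in endothelial cells and 4611 ± 473 CPM in satellite glia, and B2m, the light chain of class I MHC, 10557 CPM in endothelial cells and 4128 CPM in satellite glia.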

How the data were processed

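The values used were the deposited UMI counts per gene and cell barcode, whole numbers with no normalization by the authors, per the file headers. How reads were aligned, to which genome build and annotation, and how cells were called is not given in the sources used here, so promoter coordinates are those of RefSeq GRCr8 and not of the counts. No barcode held under 500 UMIs. Groups came from the sample titles, and all 4 libraries were used.

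Cells were kept from 200 genes upward and up to 25% mitochondrial UMIs, less the 5% of cells per library with the highest doublet scores, because the automatic threshold marked 2 and 278 cells in CPIP and 1 and 4 cells in Sham. Leiden clustering at resolution 1 (scanpy 1.11.5, igraph 0.11.9, Python 3.11.15) left out 82 genes, the members and further interferon-induced genes, and clusters were named from marker lists. Tests were run in the 10 classes that had 30 or more cells per library; low-UMI clusters and 2 unnamed clusters were not. Barcodes that occur in several libraries were kept.

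Counts were summed per library and class and tested with edgeR 4.0.16 (R 4.3.3; quasi-likelihood, TMM factors, filterByExpr, Benjamini-Hochberg adjustment over all genes tested). The class by group term was tested with both classes of each library in 1 fit with the library as a block. With 2 libraries per group, p-values measure the spread between pools of 3 rats, and the smallest two-sided exact permutation p is 0.33. Counts were simulated from the mean levels and library sizes of satellite glia, with 200 genes changed. The spread between libraries was set by hand, alike for every gene, and not estimated from the data. The fit recovered 70.0% of 2-fold and 95.5% of 4-fold changes among 12757 and 12756 genes. These shares do not carry over to genes that vary more or to classes that were not simulated.

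Alternatives were DESeq2 1.42.0, no TMM factors, no filter, the replicate number as a block, doublets kept, at most 15% mitochondrial UMIs, members among the clustering genes, resolution 0.5, thinning to 500 or 2000 UMIs and leaving out each library; the crossed pairing and the addition of the unnamed glial cluster were chosen after seeing the data. In fits that leave 1 library in a group, that library is assumed to vary like the others. The members and gene lists were chosen with earlier results of these data known. Genes named for CPIP over Sham are, in 6 classes, the 3 with the highest mean and the 3 highest and 3 lowest fold changes among members of at least 10 CPM; for endothelial cells over satellite glia, the 5 highest and 3 lowest; others named were chosen after their values were seen.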

Additional observations from a re-analysis of the deposited data

Results flagged for a closer look

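For 10 members, both CPIP libraries lay above both Sham libraries in at least 1 of the classes tested and below them in another. The difference between the classes was not tested for any of these pairs, and no fold change was called in either class. How many of all genes met the same rule was not counted, so the number of members cannot be set against a background. Within single classes, part of all genes also lay above or below in this way, with shares given above for several classes. The pair given for each member is that of the highest and the lowest log2 fold change of CPIP over Sham among such classes.

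Ifit3 had a log2 fold change of 3.11 in neutrophils and monocytes and -1.51 in non-myelinating Schwann cells, a difference of 4.62. Oasl had 1.43 in neutrophils and monocytes and -1.61 in non-myelinating Schwann cells, a difference of 3.04. Ifih1 had 0.61 in neutrophils and monocytes and -0.34 in fibroblasts, a difference of 0.95. Neutrophils and monocytes held few cells, 35 in Sham 2, and both Sham values of Ifit3 there lay below the level of 3 UMIs.

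Herc6 had 0.70 in smooth muscle cells and -0.65 in macrophages, a difference of 1.35. Parp14 had 0.56 in smooth muscle cells and -0.39 in macrophages, a difference of 0.95. Gbp2 had 0.86 in smooth muscle cells and -0.10 in endothelial cells, a difference of 0.96, and Stat2 had 0.88 in smooth muscle cells and -0.14 in neurons, a difference of 1.02.

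Ifi44 had 0.37 in endothelial cells and -0.59 in non-myelinating Schwann cells, a difference of 0.96. Gbp5 had 0.48 in neurons and -0.02 in endothelial cells, a difference of 0.50. Isg15, at 12 to 13 UMIs per library in endothelial cells and 67 to 88 in satellite glia, had 0.14 in endothelial cells and -0.41 in satellite glia, a difference of 0.55.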

How the results depend on the processing

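With 2 libraries per group, the counts of calls depended on single libraries and on the fit. Over the classes, 5 genes were called between CPIP and Sham; the count was 22 with DESeq2, 317 with no filter on low counts, 3 with doublets kept, 3 at 15% mitochondrial UMIs, 3 with members among the clustering genes and 3 at resolution 0.5. Leaving out 1 library gave 87 to 2057 genes and 3 to 17 members, no filter gave 5 members, and in all cells summed DESeq2 called 54 genes, and leaving out 1 library called 0 to 418 genes and 0 to 1 members. For the class by group term, leaving out 1 library called 0 to 4 members. The count of members called in endothelial cells over satellite glia, 24, stayed between 23 and 27 under its 8 alternatives. The cause of these shifts was not tested.

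The replicate numbers of CPIP and Sham were not taken to pair the libraries. Deviations of same-numbered libraries from their group means correlated at -0.09 in satellite glia, -0.09 in endothelial cells, -0.11 in neurons and -0.18 in all cells. With 2 libraries per group each class gives a single correlation, which cannot decide whether same-numbered libraries share a batch. With the replicate block, 43 genes and 1 member were called over the classes, the member being Ifit1 in endothelial cells (log2 fold change 1.90), and Gbp2 in macrophages turned to 0.072. With the crossed pairing as a replicate block, 210 genes and 2 members were called over the classes and 1 gene in all cells summed, and Gbp2 in macrophages turned to 0.0093.

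The median fold change of the members ranged, with 1 library left out, from -0.029 to 0.34 in endothelial cells, -0.39 to 0.15 in fibroblasts, -0.68 to 0.13 in macrophages, -0.48 to -0.048 in myelinating Schwann cells, -0.17 to 0.090 in neurons, -0.36 to 0.83 in neutrophils and monocytes, -0.58 to -0.10 in non-myelinating Schwann cells, -0.27 to 0.22 in pericytes, -0.22 to 0.11 in satellite glia and 0.23 to 1.08 in smooth muscle cells. In fibroblasts it was -0.093 at 15% mitochondrial UMIs.

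Summed levels without the member with the highest mean were 4693 CPM in endothelial cells, 3561 in satellite glia, 2275 in pericytes, 1583 in non-myelinating Schwann cells, 1022 in fibroblasts, 437 in neurons and 388 in myelinating Schwann cells. The sum was 859 CPM in myelinating Schwann cells with doublets kept and 938 CPM in smooth muscle cells with members among the clustering genes. The share of cells with a member UMI was 88.3% and 75.7% in endothelial cells and satellite glia at 500 UMIs, 99.9% and 96.8% at 2000 UMIs, and 97.1% in satellite glia without thinning. The variance over mean was 1.64 and 1.88 at 500 UMIs, 3.26 and 4.20 at 2000 UMIs, and 17.7 and 23.1 without thinning, so it was higher at greater depth.

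Of the fold changes of single named members, which were not called, 12 changed sign under an alternative other than leaving out a library. At 15% mitochondrial UMIs these were Ifih1 in satellite glia (-0.0069) and myelinating Schwann cells (-0.010) and Irf1 in non-myelinating Schwann cells (-0.035). With doublets kept, Xaf1 in endothelial cells (0.014) and Parp14 in myelinating Schwann cells (-0.031) did. With members among the clustering genes, Xaf1 in endothelial cells (0.075) and Gbp2 in macrophages (0.075) did, and at resolution 0.5 Xaf1 in endothelial cells (0.074), Gbp2 in macrophages (0.11) and Gbp2 in non-myelinating Schwann cells (0.065). The others were those of Gbp2 under the blocks above.

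With 1 library left out, 21 fold changes took both signs. In macrophages the range was -0.59 to 1.01 for Gbp2, -1.05 to 0.52 for Gbp5, -0.57 to 0.66 for Ifit2, -0.52 to 0.55 for Irf1, -1.23 to 0.13 for Mx1 and -0.68 to 0.28 for Oasl. In endothelial cells it was -0.41 to 0.46 for Ifi27, -0.077 to 1.22 for Ifi27l2b, -0.30 to 0.42 for Ifit3, -0.63 to 0.056 for Oasl and -0.59 to 0.34 for Xaf1. In satellite glia it was -1.18 to 0.069 for Ifi27, -0.032 to 0.11 for Ifih1, -0.094 to 0.66 for Irf1 and -0.085 to 0.57 for Parp14. In myelinating Schwann cells it was -0.053 to 0.61 for Irf1, -0.49 to 0.73 for Parp14 and -1.21 to 0.043 for Stat2. In non-myelinating Schwann cells it was -0.13 to 0.65 for Gbp7 and -0.27 to 0.41 for Irf1, and in neurons -0.16 to 0.31 for Ifi27.

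Depth limits the rare members: a count of 0 in endothelial cells allows a level of up to 1.14 CPM in CPIP 1 (3 UMIs of the library's class sum, counting error only).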
